A study of Drosophila melanogaster with 4 samples.

Results

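The genes described here encode the subunits of the mitochondrial oxidative phosphorylation complexes, taken as every array probe whose fly gene symbol starts with ND-, UQCR-, COX followed by a digit, or ATPsyn, together with SdhA, SdhB, SdhC and SdhD. The symbols were read through the CG number that the array design gives each probe. The choice gave 128 of 32162 distinct probes and 85 genes, of which 70 were measured among 14871 genes and transcripts measured in all. The study set whole embryos of Drosophila melanogaster with ectopic expression of the microRNA mir-3, homozygous and in the w1118 background, against wild-type w1118 embryos. Eggs of both genotypes were collected over 2 h at 25 °C, and RNA was taken 6 to 8 h after laying. Each of 4 two-colour Agilent arrays carried RNA of both genotypes, from 3 biological replicates, the first of them hybridized again with the dyes exchanged. Cy3 marked the mir-3 ectopic RNA on the arrays of replicates 1, 2 and 3, and Cy5 marked it on the dye swap. The sources used here do not give the driver or transgene behind the ectopic expression, and the level of mir-3 was not analysed, so the genotype labels stand unchecked.

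Oxidative phosphorylation passes electrons from NADH through complex I, and from succinate through complex II, to coenzyme Q, then through complex III and cytochrome c to oxygen at complex IV. Complexes I, III and IV move protons across the inner mitochondrial membrane, and complex V, the ATP synthase, uses that gradient to make ATP. Complexes I, III, IV and V are built from products of both the nuclear and the mitochondrial genome, whereas complex II is wholly nuclear. In early fly embryos mitochondria and much of their RNA are inherited from the egg. Flies also carry duplicates of many subunit genes, a number of which are known to be used in the testis.

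Arrays of the same dye orientation agreed more closely with each other than with the dye swap. Across genes, which are not independent replicates, Pearson's r was 0.941 to 0.945 among the 3 arrays with mir-3 RNA in Cy3 and 0.752 to 0.800 between the dye swap and those arrays. Each array had 45020 spots, none saturated, and 55.8% to 63.0% of probes passed the scanner's test against background for mir-3 ectopic RNA, with 57.1% to 64.3% for wild type. Embryo markers were present in both genotypes, 20 of 20 of them above background on all 4 arrays. The number of arrays limits the precision of every value. In RNA from whole embryos, fewer cells of a type and less RNA per cell cannot be told apart.

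Subunit genes were more often lower than higher in mir-3 ectopic embryos, by small amounts. Every ratio is on the log2 scale, mir-3 ectopic divided by wild type, and its direction rests on the labelled dyes. The authors' deposited value table runs the other way by those dyes. With the arrays of replicate 1 averaged, limma's test of the 3 replicate ratios against 0, adjusted by Benjamini-Hochberg over all 14871 genes at a threshold of 0.05, called 36 of the 70 measured members lower, 13 higher and 21 neither. The averaging balances the dyes in replicate 1 alone, since replicates 2 and 3 had mir-3 RNA in Cy3 only. A dye effect can therefore remain in these calls. Of the 70, 68 were above background in both genotypes on 4 arrays. The other 2, the duplicates ND-51L1 and COX6AL, were kept through the mir-3 ectopic channel in which they are higher, and without them 11 members were higher. Of all 70 members, ND-51L1 and COX6AL included, 51.4% were lower, where 24.4% of all genes were called lower. In the other direction 18.6% were higher, where 24.3% of all genes were called higher. The median member ratio was -0.15, beside -0.002 for all genes. The 36 lower members had a median of -0.25 and the 13 higher ones a median of 0.21. A single member, ND-AGGG, reached an absolute log2 ratio of 0.5. On single arrays the median of the members was -0.11, -0.13 and -0.15 for replicates 1, 2 and 3 and -0.16 for the dye swap. All 4 arrays gave a ratio below 0 for 36 members (51.4%, beside 27.3% of all genes) and above 0 for 11 members (15.7%, beside 28.0%). Most members were bright: 49 had a mean log2 signal of at least 12, of which 28 (57.1%) were lower and 6 higher. Without replicate 3 the counts were 22 lower and 5 higher, and without replicate 2 they were 25 lower and 5 higher. With replicate 1 taken from its dye swap alone they were 24 lower and 3 higher. Calls over all genes fell too, from 3633 lower and 3612 higher to 2221 and 2521 without replicate 3. They were 2400 and 2726 without replicate 2, and 2089 and 2223 with that dye swap alone. With each array centred on its median in place of loess normalization, 0 members passed in limma in either direction, also at an unadjusted p under 0.05, and calls over all genes were 24 higher and 58 lower. Under that setting the complex medians were -0.14 for I, -0.28 for III, -0.16 for IV and -0.20 for V, while that of II changed sign. As an example of the error, ND-15 had an SE of 0.277, against 0.046 with loess. Why the calls were lost was not tested. In a comparison chosen after seeing the data, 29% of the 2453 genes with a mean log2 signal of at least 12 were called lower and 32% higher.

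**Figure D1:**
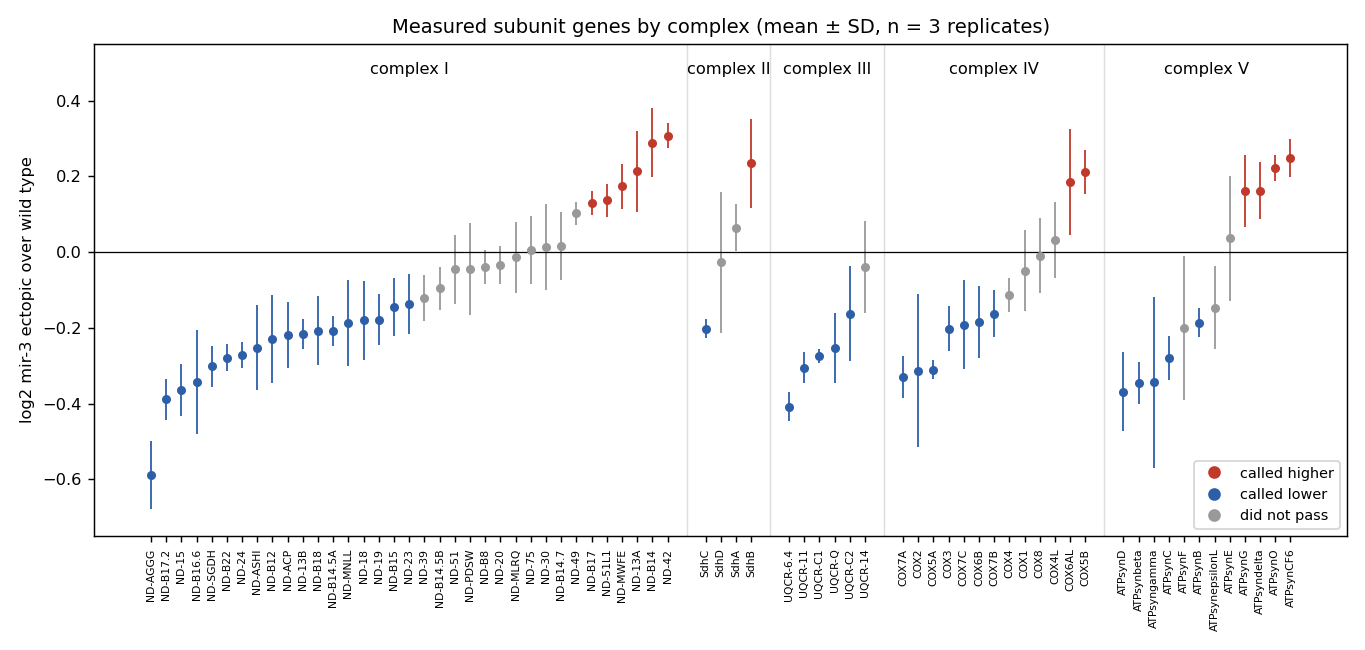
Log2 ratio of mir-3 ectopic over wild type for the 70 measured members, ordered within each complex. Points are means and bars SD over 3 replicates, coloured by limma's call over all genes. The values of ND-51L1 and COX6AL rest on wild-type signals mostly not above background. Among these members each complex has at least 1 lower call, and complex III has no higher call.

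Complex I, the NADH dehydrogenase, was the largest group, with 18 of 35 measured members lower, 6 higher and 11 neither, and a median of -0.14. The 7 nuclear core subunits, which hold the flavin, the iron-sulfur clusters and the quinone-binding region, had 2 lower calls and no higher one. How they compare with the other complex I genes was not tested. In the NADH-binding arm ND-24, the counterpart of human NDUFV2, was lower, while ND-75 (0.01) and ND-51 (-0.05) did not pass. The kept probes of ND-75 disagreed: the dimmer was called higher at 0.16, and the brighter, at -0.15, did not pass. In the quinone-facing arm ND-23 was called lower at -0.14, with 0.02 on the array of replicate 1, a call that held in 4 of 15 alternatives and not without replicate 2 or without replicate 3 (limma adjusted p = 0.237 and 0.227). In the same arm ND-49 (0.10), ND-30 (0.01) and ND-20 (-0.03) did not pass. Leaving the duplicate ND-51L1 aside, of the 27 measured accessory subunits around that core 16 were lower and 5 higher, with a median of -0.18.

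The complex I genes of smallest p were ND-AGGG, ND-B17.2, ND-15 and ND-42. ND-B17.2, the counterpart of human NDUFA12, gave ratios of -0.45, -0.45 and -0.36 for replicates 1, 2 and 3 and -0.26 for the dye swap. Its mean was -0.39 ± 0.05 (SD, n = 3; limma adjusted p = 0.000457), and its ratio was below 0 on every array. ND-15, the counterpart of human NDUFS5, gave -0.23, -0.44 and -0.33, with -0.41 on the dye swap, and a mean of -0.36 ± 0.07 (SD, n = 3; limma adjusted p = 0.000736). ND-42, the counterpart of human NDUFA10, went the other way, with 0.48, 0.35 and 0.29 and 0.09 on the dye swap. On the log2 signal scale it read 12.26, 12.15 and 12.14 in mir-3 ectopic embryos of replicates 1, 2 and 3, with 12.11 on the dye swap, against 11.79, 11.80 and 11.85 in wild type, with 12.02 on the dye swap. The genotypes did not overlap, and the mean ratio was 0.31 ± 0.03 (SD, n = 3; limma adjusted p = 0.00107). ND-24 was lower at -0.27 ± 0.03, ND-B16.6, the counterpart of human NDUFA13, at -0.34 ± 0.14, and ND-SGDH, the counterpart of human NDUFB5, at -0.30 ± 0.05 (SD, n = 3 each). Besides ND-42, the other higher members were ND-B14 (0.29), ND-13A (0.21), ND-MWFE (0.17) and ND-B17 (0.13), and the dim duplicate ND-51L1. The brighter probes of ND-B14 and ND-MWFE, at 0.17 and 0.09, did not pass. The call for ND-B14 held in 13 of 15 alternatives. Those for ND-13A, ND-MWFE and ND-B17 each held in 8 of 15 and in 1 of the fits without 1 replicate.

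ND-AGGG, the counterpart of human NDUFB2, had the lowest mean ratio of the members, and its probes disagreed. Averaged over 3 probes it gave -0.52, -0.60 and -0.67 for replicates 1, 2 and 3 and -0.47 on the dye swap, with a mean of -0.59 ± 0.09 (SD, n = 3; limma adjusted p = 0.000113). A pair of the probes gave -0.94 and -0.87, both lower. The brightest probe gave 0.05 and did not pass, so the call for this gene rests on the dimmer pair. On that brightest probe the log2 signals were 13.14, 12.92 and 12.93 in mir-3 ectopic embryos, with 13.02 on the dye swap, against 13.02, 12.92 and 13.02 in wild type, with 12.66 on the dye swap, and the genotypes overlapped.

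Complex II, succinate dehydrogenase, showed no common direction, with 1 of its 4 genes higher, 1 lower and a median of 0.02. SdhB, the iron-sulfur subunit, gave 0.24, 0.23 and 0.36 for replicates 1, 2 and 3 and -0.003 on the dye swap. It was called higher at 0.23 ± 0.12 (SD, n = 3; limma adjusted p = 0.0108), while its dye swap lay at about 0. SdhC, one of the membrane anchors, gave -0.16, -0.17 and -0.23 and -0.25 on the dye swap, and was lower at -0.20 ± 0.03 (SD, n = 3; limma adjusted p = 0.00638). SdhA, the flavoprotein, at 0.06 ± 0.06, and SdhD, the other anchor, at -0.03 ± 0.19, did not pass (SD, n = 3 each).

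Complex III, the cytochrome bc1 complex, had the lowest median of the 5 complexes, -0.26, with 5 of 6 measured members lower and 0 higher in limma, also at an unadjusted p under 0.05. Its medians were -0.25, -0.23 and -0.31 for replicates 1, 2 and 3 and -0.29 on the dye swap. UQCR-6.4, a small subunit, read 13.71, 13.86 and 13.85 on the log2 signal scale in mir-3 ectopic embryos, with 13.74 on the dye swap, against 14.11, 14.27 and 14.29 in wild type, with 14.07 on the dye swap. Every mir-3 ectopic value lay below every wild-type value, and the mean ratio was -0.41 ± 0.04 (SD, n = 3; limma adjusted p = 0.00031). UQCR-C1, a core protein, gave -0.25, -0.26 and -0.30 and -0.29 on the dye swap, with a mean of -0.27 ± 0.02 (SD, n = 3; limma adjusted p = 0.00159). UQCR-11 was lower at -0.30 ± 0.04 and UQCR-Q, a small subunit, at -0.25 ± 0.09 (SD, n = 3 each). The other core protein, UQCR-C2, was called lower at -0.16, but its ratio was -0.52 on the dye swap and -0.09, -0.10 and -0.08 on the other arrays. Its brighter probe did not pass, at -0.10. The call for UQCR-C2, 1 of the 5 lower calls, held in 5 of 15 alternatives and in 0 of the fits without 1 replicate. UQCR-14 did not pass, at -0.04.

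**Figure D2:**
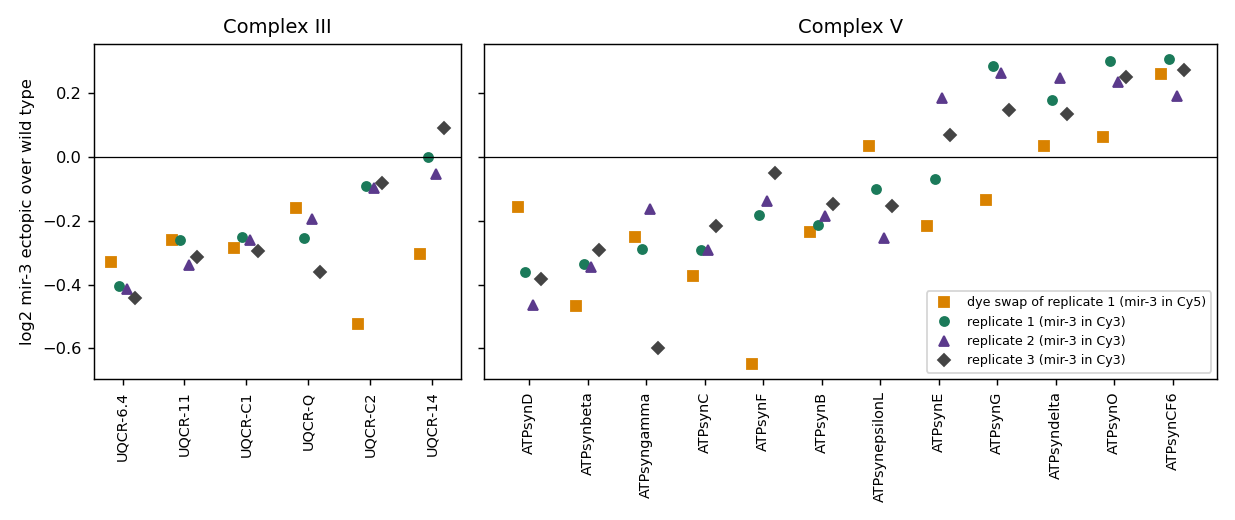
Log2 ratio of mir-3 ectopic over wild type on each array for the members of complexes III and V, with the dye swap as squares and the arrays of replicates 1, 2 and 3 as circles, triangles and diamonds. UQCR-6.4, UQCR-11, UQCR-C1, ATPsynbeta and ATPsynC lie below 0 on all 4 arrays, ATPsynCF6 lies above 0 on all 4, and the dye swap stands apart for UQCR-C2 and ATPsynF.

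Complex IV, cytochrome c oxidase, had 7 of 13 measured members lower and 2 higher, one of the 2 being the dim duplicate COX6AL, with a median of -0.16. Of its nuclear subunits other than duplicates, 5 of 8 were lower and 1 was higher. COX7A read 13.66, 13.46 and 13.44 on the log2 signal scale in mir-3 ectopic embryos, with 13.62 on the dye swap, against 14.04, 13.83 and 13.70 in wild type, with 13.94 on the dye swap. Its ratio was below 0 on every array, with a mean of -0.33 ± 0.05 (SD, n = 3; limma adjusted p = 0.000968). COX5A gave -0.35, -0.30 and -0.34 and -0.24 on the dye swap, and a mean of -0.31 ± 0.02 (SD, n = 3; limma adjusted p = 0.000956). COX5B was the nuclear subunit called higher, at 0.23, 0.28 and 0.20 with 0.09 on the dye swap, and a mean of 0.21 ± 0.06 (SD, n = 3; limma adjusted p = 0.00696). COX4 did not pass, at -0.11.

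The catalytic core of complex IV is encoded by mitochondrial DNA, and 2 of its 3 genes were called lower. COX3 gave -0.11, -0.26 and -0.21 and -0.17 on the dye swap, with a mean of -0.20 ± 0.06 (SD, n = 3; limma adjusted p = 0.00857). On the array of replicate 1 that value lacks 1 of its 3 probes, which gave -0.49 and -0.43 for replicates 2 and 3. Its brightest probe did not pass, at -0.05. The call for COX3 held in 8 of 15 alternatives and in 1 of the 3 fits without a replicate. COX2, which holds the entry site for electrons from cytochrome c, gave -0.32, -0.33 and -0.50, but 0.12 on the dye swap. Its mean was -0.31 ± 0.20 (SD, n = 3; limma adjusted p = 0.0117), and the sign on the dye swap was opposite to that on the other 3 arrays. COX1, which holds the oxygen-reducing site, did not pass, at -0.05 ± 0.11 (SD, n = 3). Its brightest probe was called lower at -0.15, and its other probes, at -0.09 and 0.09, did not pass. The contrast between COX1 and COX3 therefore depended on the probe.

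Complex V, the ATP synthase, was divided, with 5 of 12 measured members lower and 4 higher, and a median of -0.17. In the catalytic head, ATPsynbeta gave -0.34, -0.34 and -0.29 and -0.47 on the dye swap. All 4 of its probes were lower, between -0.44 and -0.27, and the gene's mean was -0.35 ± 0.05 (SD, n = 3; limma adjusted p = 0.000777). The rotor subunit ATPsyngamma was lower at -0.34 ± 0.23, its replicate 3 at -0.60 and the other arrays between -0.29 and -0.16 (SD, n = 3; limma adjusted p = 0.0112). ATPsyndelta, also of the rotor, was called higher at 0.16 ± 0.08 (SD, n = 3; limma adjusted p = 0.0252). ATPsynC, the membrane ring that turns as protons pass, was lower at -0.28 ± 0.06 (SD, n = 3; limma adjusted p = 0.00209), all 3 of its probes lower.

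The peripheral stalk, which holds the head still, had members on both sides. ATPsynD was lower, at -0.36, -0.47 and -0.38 and -0.16 on the dye swap, with a mean of -0.37 ± 0.10 (SD, n = 3; limma adjusted p = 0.00121). ATPsynB was lower at -0.19 ± 0.04 (SD, n = 3; limma adjusted p = 0.00985). ATPsynCF6 read 13.77, 13.77 and 13.70 on the log2 signal scale in mir-3 ectopic embryos, with 13.65 on the dye swap, against 13.47, 13.58 and 13.42 in wild type, with 13.39 on the dye swap. The genotypes did not overlap, and the mean ratio was 0.25 ± 0.05 (SD, n = 3; limma adjusted p = 0.00314). ATPsynO, the counterpart of the mammalian oligomycin sensitivity protein, was also called higher, at 0.22 ± 0.03 (SD, n = 3; limma adjusted p = 0.00455).

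Of the small membrane subunits of complex V, ATPsynE at 0.04 and ATPsynF at -0.20 did not pass. ATPsynF gave -0.65 on the dye swap and -0.18, -0.14 and -0.05 on the arrays of replicates 1, 2 and 3. ATPsynG was called higher at 0.16, but its brighter probe was lower at -0.30 and its dimmer probe higher at 0.63. It was the 1 member with probes called in opposite directions, and its direction is uncertain.

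**Figure D3:**
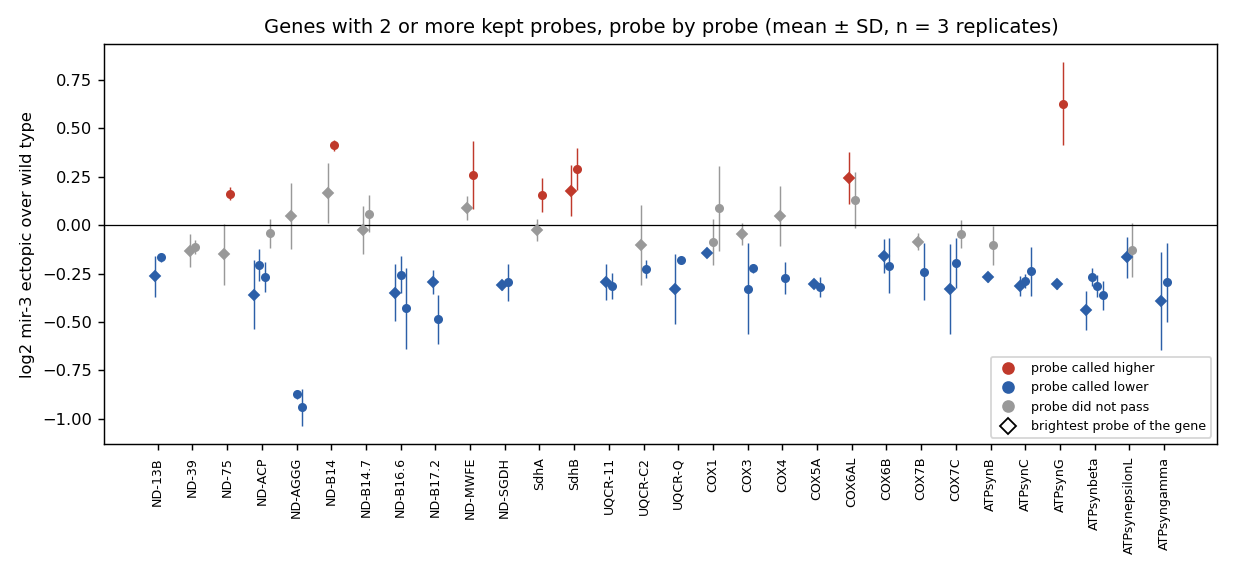
Log2 ratio of mir-3 ectopic over wild type for each kept probe of the 30 members with at least 2 kept probes, as means with SD bars over 3 replicates, coloured by the call of the probe. Diamonds mark the brightest probe of a gene. The probes of ATPsynG lie on opposite sides of 0, and the brightest probe of ND-AGGG lies near 0 while its other probes lie near -0.9.

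Probe by probe, 59 of 110 kept member probes were lower and 15 higher, beside 23.2% lower and 24.8% higher of all 19737 kept probes. Probes of one gene share their target and are not independent. The other 18 member probes were dim, 14 of them never well above background.

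Duplicates were mostly not above background. Of 19 duplicates with a probe, 4 were measured, whereas 66 of 66 other members were. ND-51L1, a duplicate of ND-51, was well above background in mir-3 ectopic embryos on 3 of 4 arrays and in wild type on 0 of 4. Its fitted ratio of 0.14, or 1.1-fold higher in mir-3 ectopic embryos (limma adjusted p = 0.034 in the fit of all genes), rests on those wild-type signals. A bound from the lowest signal among probes well above background gave the same 1.1-fold. Its own wild-type signal, 6.32 on the log2 scale, was not below that lowest signal. ND-51L1 was kept through the genotype in which it is higher, and its call held in 0 of the fits without 1 replicate. COX6AL passed the background test in mir-3 ectopic embryos on 3 of 4 arrays and in wild type on 1 of 4. Its fitted ratio of 0.19 (limma adjusted p = 0.0368) therefore rests on wild-type signals that were mostly not above background, and it was kept through the genotype in which it is higher. COX4L at 0.03 and ATPsynepsilonL at -0.15 did not pass. Of 23 testis markers on the array, 7 were measured and 1 was called, higher.

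Set side by side on each array, complex III had the lowest median and complex II the highest on all 4. The medians of complex I were -0.12 on the dye swap and -0.08, -0.12 and -0.10 for replicates 1, 2 and 3. Those of complex II were -0.03 on the dye swap and 0.03, 0.07 and -0.05. Those of complex IV were -0.04 on the dye swap and -0.13, -0.12 and -0.15, and those of complex V -0.19 on the dye swap and -0.14, -0.15 and -0.10. All-gene medians were -0.01 on the dye swap and 0.02, -0.01 and 0.001. The difference between complexes was not tested.

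**Figure D4:**
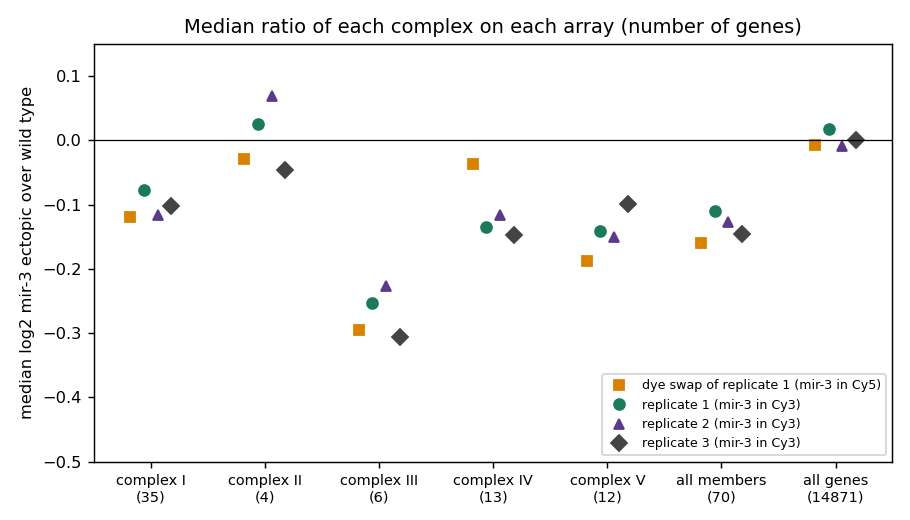
Median log2 ratio of mir-3 ectopic over wild type over the measured members of each complex, over all 70 members and over all 14871 genes, on each array. Squares are the dye swap and the other symbols replicates 1, 2 and 3. Complex III lies lowest on every array and complex II nearest to the all-gene medians.

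The dye swap is 1 array of replicate 1, so an orientation has no replicate spread of its own on that side, and dye and replicate are mixed in the contrast. When the dye entered the fit as a second term over the 4 arrays, 39 members were lower and 11 higher, beside 27.5% and 26.9% of the 14866 genes fitted. The dye swap is fitted exactly there, and the spread comes from the other 3 arrays. Of the 49 members called on the 3 replicates, 43 were called the same way with the dye as a term, and 42 had the same sign on all 4 arrays. That last share was similar over all genes, where 6325 of 7245 called genes had the same sign on all 4 arrays. In 874 of the 7245 the dye swap had the opposite sign to the mean of the other arrays. The difference of the dye swap from the mean of the other arrays passed limma's adjusted threshold, with the spread of those other arrays assumed for it, in 8 of 70 members (11.4%), beside 16.4% of all genes. It was below 0 for ATPsynF (-0.53), UQCR-C2 (-0.43), ATPsynG (-0.37), ND-PDSW (-0.32) and UQCR-14 (-0.32), and above 0 for COX2 (0.50), COX7C (0.29) and ND-MLRQ (0.26). Called members whose dye swap had the opposite sign to the mean of the other arrays were ND-MNLL, ND-B17, SdhB, COX2, COX7C and ATPsynG.

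**Figure D5:**
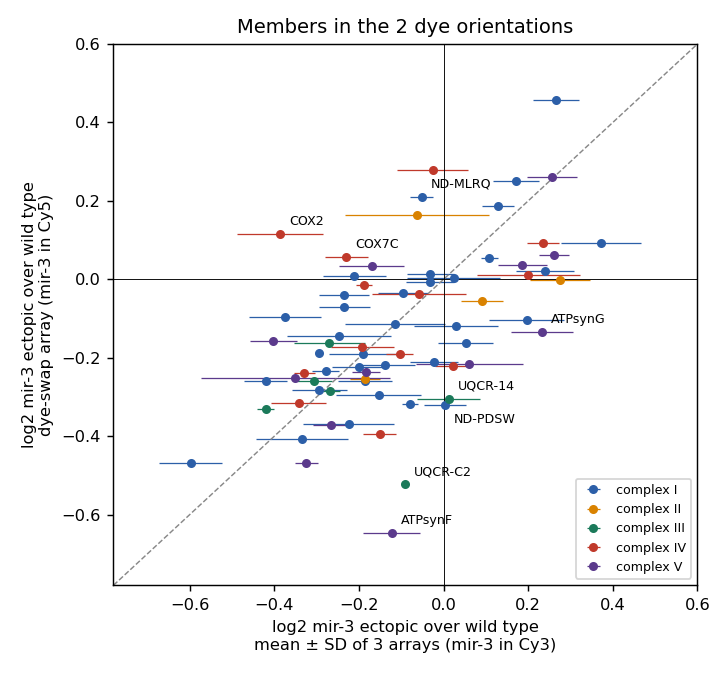
Log2 ratio of mir-3 ectopic over wild type on the dye-swap array (vertical axis) against the mean and SD of the 3 arrays with mir-3 RNA in Cy3 (horizontal axis) for the 70 measured members, coloured by complex. The dashed line marks equal values, and the 8 named members are those whose dye swap differed from the other arrays in limma with the spread of those arrays assumed for it.

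Subunits and carriers of the same pathway that carry other names were mixed, with 4 of 12 measured genes lower, 4 higher and a median of -0.05. Counts for this and the later lists stand beside 24.4% lower and 24.3% higher among all genes. Whether any list differs from those shares was not tested. The lowest was cype, a complex IV subunit, which gave -0.79, -0.88 and -0.89 for replicates 1, 2 and 3 and -1.03 on the dye swap, a mean of -0.89 ± 0.02 (SD, n = 3; limma adjusted p = 7.67e-06). levy, also of complex IV, was lower at -0.31 ± 0.04 and RFeSP, the Rieske iron-sulfur protein of complex III, at -0.23 ± 0.04 (SD, n = 3 each). Cyt-c1, also of complex III, was called higher at 0.15 ± 0.06 (SD, n = 3; limma adjusted p = 0.0296). blw, the catalytic head's alpha subunit, was named after its values were seen: it gave 0.32, 0.31 and 0.37 but -0.23 on the dye swap. Among the other mitochondrially encoded subunits, 2 of 7 measured genes were lower and 1 was higher. ATP6, the proton channel of complex V, was higher at 0.37 ± 0.15, while ND4 of complex I was lower at -0.19 ± 0.05 and CYTB of complex III at -0.14 ± 0.07 (SD, n = 3 each).

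In the list of assembly and coenzyme Q genes, which also holds ifc, 5 of 20 measured genes were lower and 2 higher, with a median of -0.03. Coq8, needed for coenzyme Q synthesis, gave 0.91, 0.95 and 1.02 and 0.80 on the dye swap, with a mean of 0.94 ± 0.08 (SD, n = 3; limma adjusted p = 1.23e-05). Coq6, a coenzyme Q synthesis enzyme, was lower at -0.31 ± 0.06, and ifc, a dihydroceramide desaturase found at mitochondria, was higher at 0.34 ± 0.04 (SD, n = 3 each). In the citric acid cycle and pyruvate list, 10 of 22 measured genes were lower and 4 higher, with a median of -0.08. Mdh2, the mitochondrial malate dehydrogenase, gave -1.71, -1.77 and -1.73 and -1.52 on the dye swap, with a mean of -1.70 ± 0.08 (SD, n = 3; limma adjusted p = 8.21e-07). Mdh1, its cytosolic counterpart, was lower at -0.54 ± 0.04, and Pepck2 was higher at 0.59 ± 0.14 (SD, n = 3 each). Of 20 measured genes for mitochondrial gene expression and upkeep, 6 were lower and 5 higher, beside 24.4% and 24.3% of all genes. Their median was -0.03. PolrMT, the mitochondrial RNA polymerase, was higher at 0.61 ± 0.07, Pink1, a mitochondrial quality-control kinase, at 0.51 ± 0.04, and mtTFB2, a mitochondrial transcription factor, at 0.34 ± 0.07 (SD, n = 3 each).

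Most of the listed muscle markers were lower in the same embryos. All 14 were above background in both genotypes on 4 arrays. Of them 11 were lower and 0 higher in limma (1 higher at an unadjusted p under 0.05), beside 24.4% and 24.3% of all genes. Act87E (-0.04), Tm1 (0.007) and sls (0.11) did not pass. The list medians were -0.51, -0.68 and -0.58 for replicates 1, 2 and 3 and -0.75 on the dye swap. Of 17 measured ovary, maternal and germline markers 8 were lower and 6 higher, and of 20 embryo markers 7 were lower and 2 higher. The ovary, maternal and germline ratios ran from -3.26 for dhd to 1.68 for zpg, with a median of -0.14. Those of the embryo markers ran from -0.73 to 1.48. Of 9 fat body and larval gut markers 3 were measured, 2 of them higher and 1 lower. The part of these cell types in the ratios of the subunit genes was not tested.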

How the data were processed

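Total RNA was amplified and labelled with an Agilent kit, per the labels' protocols. The deposited scanner files hold spot intensity from Agilent Feature Extraction 10.1.1.1, per the file headers, as median foreground and background signals. The authors' deposited value table holds log2 ratios, equal to processed Cy5 over Cy3 within 2.85e-06 after the dye swap's sign was turned. It was not centred: its column medians for the arrays of replicates 1 to 3 were -0.11, -0.07 and 0.11, and -0.15 for the swap. The log10 ratios in the deposited scanner files were not used for results.

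Mean signals had been planned; median signals were used, corrected with normexp (offset 50) and normalized by loess with controls at weight 0 in limma 3.58.1 (R 4.3.3, statmod 1.5.0). Flagged spots were left out (107 to 173 an array), spots of a probe averaged, and a probe kept if well above background in at least 1 genotype on at least 3 of 4 arrays (19737 probes). Probes of a gene were averaged. Names came from a RefSeq gene table. The files' build differs from that of the table, so no coordinates are given, and no sequence was printed. Arrays paired both genotypes, 2 slides held 2 arrays each, and the arrays of replicate 1 were averaged before lmFit and eBayes, tested on simulated data. Genes named are, per complex, those of smallest p, duplicates, all Sdh genes and those with disagreeing probes or dyes, and the 3 of smallest p in each pathway list; others named were chosen after their values were seen. The listed testis marker don was left out because its name matched only as a synonym of another gene. The members and lists were chosen with earlier results of these data known. The labels name biological replicates without saying how they were kept apart, so p-values measure the spread between these samples.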

Additional observations from a re-analysis of the deposited data

Results flagged for a closer look

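Of 156 sets of 4 array values, from 151 genes and the medians of the 5 complexes, 15, all of single genes, had an array far from the other 3, 14 of them on the dye swap and 1 on replicate 3. Chance alone flags about 1 in 20 such groups, and the dye swap and replicate 1 share RNA. Among the members, ND-39 was -0.32 on the dye swap (others -0.10 to -0.06), ND-B22 was -0.19 (others -0.30 to -0.29) and UQCR-C2 was -0.52 (others -0.10 to -0.08).

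Among the other pathway genes, the dye swap was at -0.23 for blw (others 0.31 to 0.37), 0.54 for Cyt-c-p (others 0.04 to 0.11), -0.016 for Cyt-c-d (others 0.002 to 0.004), -0.18 for levy (others -0.35 to -0.32) and 0.67 for CG13551 (others 0.12 to 0.19). It was at -0.16 for Idh3a (others 0.06 to 0.11), -0.38 for Pdhb (others -0.04 to 0.004) and -0.31 for ScsbetaG (others -0.02 to -0.002). It was at 0.14 for srl (others -0.49 to -0.43), 0.11 for ERR (others -0.25 to -0.22) and -0.13 for mtDNA-helicase (others 0.03 to 0.04). Scox was the exception, with replicate 3 at -0.37 (others -0.19 to -0.17).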

How the results depend on the processing

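The counts of calls depended on the array normalization. With each array centred on its median in place of loess, 0 members were called higher and 0 lower by limma, 0 pathway genes higher and 0 lower, and 0 members differed between dye orientations. At an unadjusted p under 0.05 those counts were 0 members in each case and 2 pathway genes higher and 3 lower. All genes then gave 24 higher and 58 lower, while the complex medians kept their sign except that of complex II. With replicate 1 taken from its dye swap, 3 members were higher, and 11 pathway genes were lower. Each array pairs both genotypes by replicate number; with channels unpaired and no replicate block, 5 members were higher and 23 lower, and 12 pathway genes were lower. All genes unpaired gave 2371 higher and 2070 lower, beside 3612 and 3633 in the main fit. Leaving out 1 replicate gave 5 to 12 members higher and 22 to 36 lower, with 5 to 6 dye differences. The same fits gave 12 to 17 pathway genes higher and 14 to 31 lower. Over all genes they gave 2521 to 3996 higher and 2221 to 4232 lower. The fewest calls came without replicate 2 or without replicate 3, which kept 30 and 26 of the 49 calls, against 46 without replicate 1; the cause was not tested. The dye fit without replicate 1 was not possible, since it removes the swap. Counting probes gave 59 lower, and requiring both channels above background on all arrays gave 15 dye differences. The median of complex I was -0.10 with no filter, -0.12 with replicate 1 from its Cy3 array, -0.16 from its dye swap and -0.14 to -0.13 without 1 replicate. That of complex III was -0.21 with no filter. That of complex IV was -0.085 on brightest probes, -0.10 with a dye term, -0.081 with no filter, -0.14 from the dye swap and -0.15 to -0.13 without 1 replicate. That of complex V was -0.23 on brightest probes, -0.0024 with no filter and -0.27 over probes. On brightest probes ND-AGGG was 0.048, ATPsynG -0.30 and Idh3g 0.00030, and from processed signals or the value table CYTB was 0.016. The causes of these other changes were not tested. In 14 of 15 alternatives, all but median centring, 17 members kept their call.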
